A study of Mus musculus with 6 samples.

Results

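The collagen gene family was examined in V720, a breast cancer cell line from the mouse whose tissue the labels give as mammary epithelium, after CDK4 and CDK6 were inhibited. The members were all probe sets whose single annotated gene symbol has the form of a collagen chain name (Col, a number, a, a number), and 82 probe sets of 42 genes met this rule, out of 34945 probe sets of 18193 genes with a single symbol. All cultures were kept in DMEM with 10% fetal calf serum. The vehicle group held 3 arrays of cells given vehicle for 24 h, and the PD0332991 group 3 arrays of cells given 1 µM PD0332991 (palbociclib, an inhibitor of CDK4 and CDK6) for 24 h. The series text describes biological triplicates of this 1 line, and each RNA sample went to its own Affymetrix array.

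Collagens are trimers of chains that carry long repeats, with a glycine in each repeat unit, and wind into a triple helix. Fibrillar collagens form the cables of connective tissue, fibril-associated collagens decorate them, type IV collagen makes the net of the basement membrane on which epithelium sits, and the others form filaments, anchoring fibrils, membrane proteins or short-chain nets. In the mammary gland the interstitial types I and III come mainly from fibroblasts, and epithelial cells are known to contribute to the basement membrane.

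Median probe-set intensity was 71.8 ± 0.79 with vehicle and 70.1 ± 0.84 with PD0332991 (SD, n = 3 each), and correlations across genes were 0.9969 to 0.9973 within and 0.9919 to 0.9927 between groups. The hybridization spike-ins averaged 9.91 ± 0.15 and 10.03 ± 0.03 on the log2 scale (SD, n = 3 each), with vehicle replicate 1 lowest at 9.74. Mki67, a gene of dividing cells, fell 4.01-fold, with intensities of 4197 ± 112 and 1037 ± 72.4 in the groups (SD, n = 3 each, limma adjusted p = 4.5e-05). Of 12 epithelial markers, 10 were above background, 2 rose (Cldn4 and Krt7) and 2 fell (Esrp1 and Elf3), with Epcam at 9443 to 9737 and 9595 to 9727 in the 2 groups. The 2 not above background were Elf3, at 102 to 129 with vehicle and 76.7 to 87.4 with PD0332991, and Krt19, at 1 to 2.27 on all arrays. Of 12 fibroblast markers, only Postn was above background; their summed intensity was 2664 to 2764 with vehicle and 2337 to 2739 with PD0332991, and the other 11 ran from Pdgfrb, at 2.58 to 9.08, to Pdgfra. Pdgfra fell (164 to 190 with vehicle and 111 to 121 with PD0332991, limma adjusted p = 0.0038), and Cxcl12 rose (44.8 to 63.1 and 69.4 to 77.8, adjusted p = 0.0418), while Dcn read 102 to 108 on all arrays. Of 8 basal and myoepithelial markers, only Acta2 was above background (504 to 568 with vehicle and 549 to 603 with PD0332991), and none was called. No marker of endothelium, leukocytes, adipocytes or pericytes, out of 8, 9, 4 and 6 measured, was above background at the main level of 305 to 359. Below it, 3 leukocyte markers rose, namely Cd68 (216 to 247 with vehicle and 291 to 319 with PD0332991), Ptprc (9.95 to 13.3 and 17.1 to 19.1) and Tyrobp (12.4 to 13.3 and 15.3 to 20.3). Laptm5, of leukocytes, and Emcn, of endothelium, fell. The summed leukocyte markers were 518 to 586 with vehicle and 598 to 604 with PD0332991. Of 9 markers of a mesenchymal state, 2 were above background, Cdh2, which rose, and Vim, which fell. Twist1 also rose, not above background (275 to 303 with vehicle and 338 to 371 with PD0332991). These counts stand beside 9.81% of all genes called higher and 11.2% called lower. The part of these marker changes in the collagen values was not tested. In RNA of a whole culture, fewer cells of a type and less RNA per cell cannot be told apart.

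Because the deposited values carry no detection calls, a probe set was taken as above background in a group when each of its 3 arrays exceeded the 95th percentile of 110 probe sets for genes of other organs, an intensity of 305 to 359 depending on the array. By this measure 10 of the 42 collagen genes were above background in at least 1 group: Col4a1, Col4a2, Col4a5, Col8a1, Col9a1, Col9a3, Col11a1, Col12a1, Col16a1 and Col18a1. The other 32 genes, with 60 probe sets, had intensities of 1 to 245. Median intensity over those 60 probe sets was 21.2 to 26.0, beside 16.3 to 18.9 for the organ genes. At the 90th percentile, 147 to 159, Col4a4, Col4a6 and Col7a1 were added, which made 13. The list of organ genes held the bright transcripts of Tnnt2 and Mbp. Without those the level was 82.8 to 108 and the count was 15, with Col11a2 and Col27a1 also added. This setting was added once values had been seen. Cell type markers and genes of collagen handling were read at the main level only. At the lower level some would pass, for example Cd68 and Pdgfra on all arrays and P4ha2 and Sparc with PD0332991. At the 99th percentile 3 remained, Col9a1, Col9a3 and Col11a1. Intensities of different probe sets do not rank genes against each other, so levels are compared with background only.

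The collagens typical of fibroblasts were among those below background. For types I, III and V, the 6 genes Col1a1, Col1a2, Col3a1, Col5a1, Col5a2 and Col5a3 had 14 probe sets between 2.09 and 91.7, and the 5 measured type VI genes, whose products form beaded filaments, had 7 probe sets between 1 and 64.4. Col1a1, a chain of the main collagen of stroma, read 23.4, 31.9 and 26.1 with vehicle and 30.1, 27.2 and 32.3 with PD0332991 on its brightest probe set. Col3a1 read 9.2, 8.8 and 3.07 with vehicle and 7.68, 10.4 and 15.99 with PD0332991. The groups overlapped for both genes. Also below background were the transmembrane collagens Col13a1, Col17a1, Col23a1 and Col25a1, at 1 to 52.0 over 7 probe sets, the type VII anchoring fibril gene Col7a1 at 128 to 199, and Col2a1, Col9a2, Col10a1, Col11a2, Col14a1, Col15a1, Col19a1, Col20a1, Col22a1, Col24a1, Col26a1, Col27a1, Col8a2, Col4a3, Col4a4 and Col4a6. The genes above background belonged to the basement membrane network (3 of 6 measured), the fibril-associated class (4 of 9), the fibrillar class (1 of 11), the short-chain networks (1 of 3) and the multiplexins (1 of 2).

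**Figure D1:**
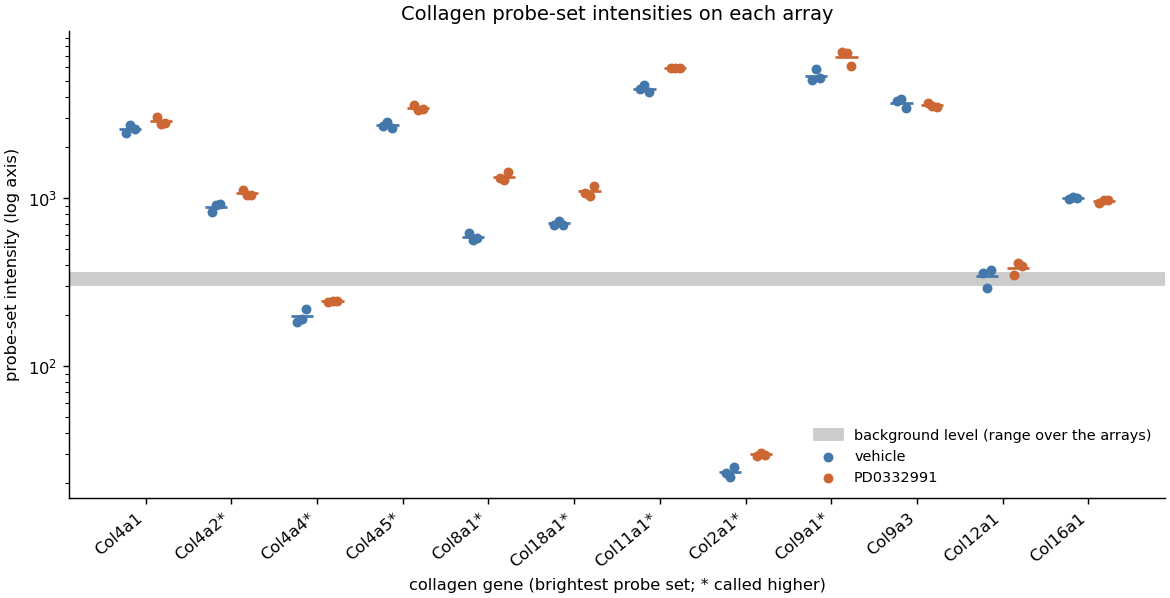
Intensity (log axis) of the brightest probe set of the 12 collagen genes that were above background or called, with 3 vehicle arrays (blue) and 3 PD0332991 arrays (orange) as points and group means as lines. The grey band is the background level, 305 to 359 over the arrays. Col4a4 and Col2a1 lie below it, Col12a1 lies at it, and the groups separate for all 8 genes with an asterisk.

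The comparison of the groups asks which collagen transcripts differ after a day of CDK4 and CDK6 inhibition. Of the 42 genes, 8 rose and 0 fell in limma (adjusted p under 0.05 over all 18193 genes, each gene on its brightest probe set): Col8a1, Col18a1, Col11a1, Col9a1, Col4a5, Col4a2, Col4a4 and Col2a1. Over all genes, 9.81% were called higher and 11.2% lower, and 19.0% of the collagens were called higher. Without a correction, 10 collagens were higher and 0 lower at p under 0.05. The share of all genes at that cut was not computed, so this count has no background beside it. The median log2 fold change was 0.12 over the 42 collagens and 0.00 over all genes (0.0048). With PD0332991 higher, the groups of 3 did not overlap in 13 collagens (31.0%; 19.3% of all genes), and with PD0332991 lower in 2, Col16a1 and Col6a2 (19.6% of all genes); over all genes, 38.9% did not overlap in either direction. Among the 10 collagens above background 6 were called higher, and 0 lower, where 15.9% of the 7366 genes above background were higher and 20.2% lower.

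The count of collagens called was sensitive to the arrays and their scaling. It was 4 without vehicle replicate 1 or without PD0332991 replicate 1, 5 without vehicle replicate 2, PD0332991 replicate 2 or PD0332991 replicate 3, and 7 without vehicle replicate 3. These counts include Col23a1 without PD0332991 replicate 2 and Col8a2 without vehicle replicate 2, both below background and not called with all arrays. Calls over all genes were also fewer in each of these fits, as given below, and were not split by direction. Col8a1, Col18a1, Col11a1 and Col4a5 kept their calls in all 6 of these fits, while Col4a2, Col4a4, Col2a1 and Col9a1 each kept theirs in 1. When arrays were centred on the spike-ins, which moved the median of all genes to -0.12, Col8a1 and Col18a1 were the 2 collagens called, beside 1.32% of all genes called higher and 8.11% lower. With vehicle replicate 1 also left out they were joined by Col11a1, beside 2.26% of all genes higher and 6.37% lower. Centring on array medians kept all 8 calls (10.4% of all genes higher, 10.3% lower), and quantile normalization kept 7, without Col9a1 (12.1% and 9.88%). The part of the low spike-in signal of that array in these calls was not tested.

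**Figure D2:**
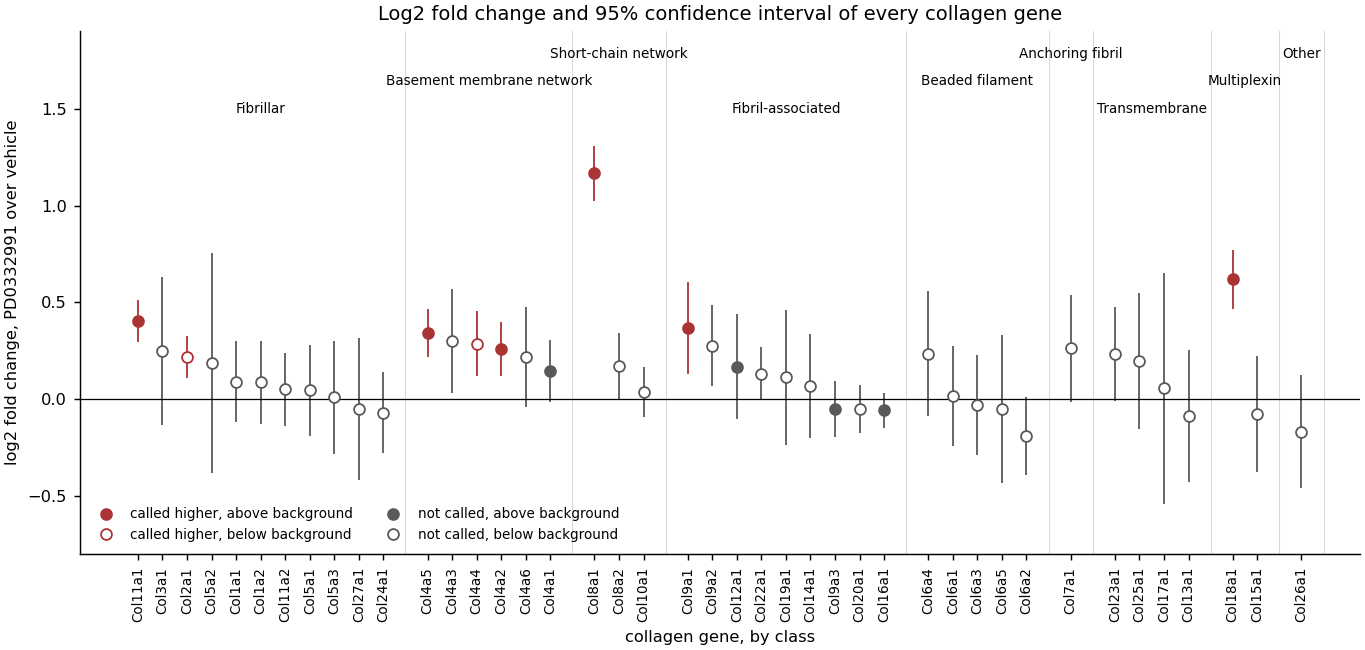
Log2 fold change (PD0332991 over vehicle) with its 95% confidence interval for each of the 42 collagen genes, by class, with filled symbols for genes above background and red for genes called higher. Col8a1 (1.17) and Col18a1 (0.62) stand highest among the called genes, all 6 type IV genes have positive values, and no interval of a called gene reaches 0.

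Col8a1 showed the largest change among the 8. It encodes a chain of the short-chain type VIII collagen, which forms a hexagonal net in vessel walls and under corneal endothelium. Its brightest probe set read 616, 566 and 582 with vehicle and 1315, 1280.3 and 1425 with PD0332991, so that every treated array was far above every vehicle array. The level was 2.24-fold higher (log2 fold change 1.17, SE 0.06, limma adjusted p = 0.000117). A second probe set averaged 255 ± 14.9 with vehicle and 615 ± 31.2 with PD0332991 (SD, n = 3 each). The dimmest, below background, averaged 30.7 ± 4.49 and 59.2 ± 8.27 (SD, n = 3 each). Each of these 3 probe sets rose in its own test. With spike-in centring the log2 fold change was 1.04, and in both scalings the value lay 1.16 above the median of all genes. Col8a2, the partner chain of type VIII, read 7.75 to 11.8 with vehicle and 11.8 to 12.7 with PD0332991, far below background in both groups.

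Col18a1 encodes the core of a heparan sulfate proteoglycan of basement membranes, whose cleaved end is the angiogenesis inhibitor endostatin. It read 691, 734 and 693 with vehicle and 1068, 1032 and 1184 with PD0332991, with no overlap. The level was 1.54-fold higher (log2 fold change 0.62, SE 0.06, limma adjusted p = 0.00186). The other probe set gave 462 ± 29.6 and 819 ± 42.8 (SD, n = 3 each), a log2 fold change of 0.81. Col15a1, the other multiplexin, stayed between 14.7 and 25.2 on all arrays.

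The type XI and type IX collagens are best known from cartilage, where they build thin fibrils together with type II collagen. Col11a1 read 4453, 4706 and 4295 with vehicle and 5933, 5919 and 5940.01 with PD0332991, with every treated array above every vehicle array. The level was 1.32-fold higher (log2 fold change 0.40, SE 0.04, limma adjusted p = 0.00256), and for its second probe set the log2 fold change was 0.21 (adjusted p = 0.0493 over probe sets). Its call was lost with spike-in centring (log2 fold change 0.28, adjusted p = 0.149). The partner chain Col11a2 read 97.5 to 123 with vehicle and 114 to 116 with PD0332991. Col2a1, whose product supplies chains of both types II and XI, read 22.9, 21.9 and 25.2 with vehicle and 29.1, 30.5 and 29.6 with PD0332991. It was called (limma adjusted p = 0.0198), but both groups were at the level of genes of other organs, so no fold is given.

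Of the type IX chains, Col9a1 and Col9a3 were above background and Col9a2 was not. Col9a1 read 5034, 5839 and 5154 with vehicle and 7359, 7286 and 6087 with PD0332991, with PD0332991 replicate 3 nearest to the vehicle arrays. Its level was 1.29-fold higher (log2 fold change 0.37, SE 0.10, limma adjusted p = 0.0474), and the call was lost in 14 of 19 alternatives, at adjusted p up to 0.215. The second Col9a1 probe set gave 1052 ± 20.3 and 1516 ± 304 (SD, n = 3 each, adjusted p = 0.0773 over probe sets). Col9a3 read 3804, 3885 and 3423 with vehicle and 3667, 3553 and 3497 with PD0332991, with overlap, and its log2 fold change was -0.05 (95% interval -0.19 to 0.09). Its second probe set, also above background, read 1774, 1916 and 1955 with vehicle and 1659, 1697 and 1716 with PD0332991, without overlap (log2 fold change -0.15, adjusted p = 0.0984 over probe sets), and the mean of its probe sets gave -0.19 (adjusted p = 0.105). Because a ratio within an array does not depend on scaling, the brightest probe sets of the 2 chains were also set against each other: log2 of Col9a1 over Col9a3 was 0.40, 0.59 and 0.59 with vehicle and 1.0, 1.03 and 0.80 with PD0332991. The difference was 0.42, with no overlap, at an exact two-sided permutation p = 0.1, the smallest that 3 against 3 arrays allow (adjusted p = 0.1 over the 2 ratios computed). Each ratio set a called gene over one not called on the same arrays, so it restates those results and is no separate support. Col9a2 read 74.6, 76.1 and 82.3 with vehicle and 111, 87.0 and 95.4 with PD0332991, below background (limma adjusted p = 0.0729).

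The fibril-associated genes Col12a1 and Col16a1 did not pass the test. Col16a1, a collagen found near basement membranes and in thin fibrils, read 989, 1012 and 1001 with vehicle and 934, 974 and 977 with PD0332991, lower on each treated array but by little (log2 fold change -0.06, 95% interval -0.15 to 0.03). Col12a1, which binds the surface of type I fibrils, read 357, 292 and 375 with vehicle and 346, 412 and 394 with PD0332991, at the background level, with overlap (log2 fold change 0.17, 95% interval -0.10 to 0.44). Its 3 dimmer probe sets had values from -0.07 to 0.01.

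Type IV collagen is built from 6 chains that join in fixed trimers. On their brightest probe sets all 6 genes had higher means with PD0332991 and groups that did not overlap, beside 19.3% of all genes. For Col4a3 and Col4a6, both below background, the groups overlapped on the second probe set. In limma 3 of the 6 genes were called, Col4a5, Col4a2 and Col4a4. Col4a5, a chain of the nets found in kidney, lung and skin, read 2668, 2845 and 2625 with vehicle and 3595, 3341 and 3386 with PD0332991 (1.27-fold higher, log2 fold change 0.34, SE 0.05, adjusted p = 0.00733), and for the other Col4a5 probe set it was 0.37. With spike-in centring its call was lost (log2 fold change 0.21, adjusted p = 0.265), although it stayed 0.34 above the median of all genes. Col4a2 read 830.1, 913 and 926 with vehicle and 1113, 1049.8 and 1042 with PD0332991, 1.20-fold higher (log2 fold change 0.26, SE 0.06, limma adjusted p = 0.0253). Its partner Col4a1, with which it forms the ubiquitous basement membrane trimer, read 2430.3, 2729 and 2592 with vehicle and 3053, 2744 and 2788 with PD0332991, so that the groups nearly touched (log2 fold change 0.15, 95% interval -0.01 to 0.30, adjusted p = 0.178). On the second Col4a1 probe set the log2 fold change was 0.25 (adjusted p = 0.0874 over probe sets). Within arrays, log2 of Col4a5 over Col4a1 differed by 0.19 between the groups, without overlap, at the same smallest exact permutation p = 0.1. This ratio too set a called gene over one not called and is no separate support.

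The other 3 type IV genes lay below background. Col4a4 read 183, 189.9 and 219 with vehicle and 242, 245 and 244 with PD0332991 on its brightest probe set. Each of its 3 probe sets rose (limma adjusted p = 0.0326 for the gene). No fold is given because no probe set reached the main background level, although the brightest exceeded the 90th percentile level of 147 to 159. Col4a6, which neighbours Col4a5 on chromosome X, read 135.4, 177 and 178 with vehicle and 185, 198 and 191 with PD0332991 (adjusted p = 0.213). Col4a3 stayed between 10.7 and 24.6 on its brightest probe set (adjusted p = 0.117). The groups overlapped on the second probe set of each. There Col4a6 read 122 to 142 with vehicle and 133 to 146 with PD0332991, and Col4a3 read 4.19 to 10.1 and 9.93 to 19.5.

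**Figure D3:**
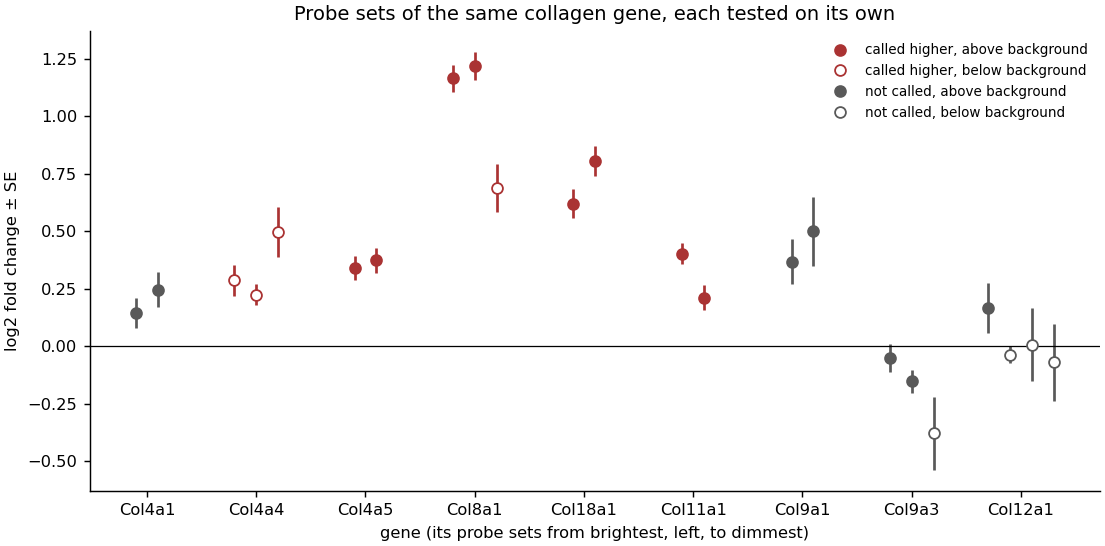
Log2 fold change ± SE of each probe set, tested on its own over 34945 probe sets, for the collagen genes of the intensity plot that have more than 1 probe set, ordered from the brightest to the dimmest. All 3 probe sets of Col8a1, all 3 of Col4a4 and both of Col18a1, Col11a1 and Col4a5 were called higher, while all 3 of Col9a3 lie below 0 and none of them was called.

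Over all member probe sets, 14 of 82 were called higher and 0 lower, beside 7.87% and 9.70% of all probe sets. The unadjusted test of the genes, given above, also had 0 lower collagens. It used the same arrays, has no all-gene share beside it and is no separate support. The probe sets of a gene share its transcripts and are not replicates of the treatment.

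The sequence upstream of the annotated start is shown for Col8a1, Col18a1, Col11a1 and Col4a5, the 4 genes whose calls survived the loss of any 1 array. Each line holds the 250 bases before a start site, 5′ to 3′ on the gene's strand, from RefSeq (GRCm38.p6). Capitals mark a GC box (GGGCGG) or a CCAAT box (CCAAT) on either strand.
Col8a1, chr16:57754738-57754987, minus strand: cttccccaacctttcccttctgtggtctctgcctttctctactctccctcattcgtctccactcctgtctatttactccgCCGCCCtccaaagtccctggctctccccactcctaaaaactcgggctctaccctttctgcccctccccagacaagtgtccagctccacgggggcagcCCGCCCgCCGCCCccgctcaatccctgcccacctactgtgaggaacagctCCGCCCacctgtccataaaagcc
Col18a1, chr10:77166531-77166780, minus strand: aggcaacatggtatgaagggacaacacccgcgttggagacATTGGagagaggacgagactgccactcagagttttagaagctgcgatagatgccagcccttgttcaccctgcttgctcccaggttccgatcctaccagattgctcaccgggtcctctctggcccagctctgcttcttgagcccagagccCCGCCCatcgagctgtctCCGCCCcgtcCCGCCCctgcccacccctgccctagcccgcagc
Col11a1, chr3:114030290-114030539, plus strand: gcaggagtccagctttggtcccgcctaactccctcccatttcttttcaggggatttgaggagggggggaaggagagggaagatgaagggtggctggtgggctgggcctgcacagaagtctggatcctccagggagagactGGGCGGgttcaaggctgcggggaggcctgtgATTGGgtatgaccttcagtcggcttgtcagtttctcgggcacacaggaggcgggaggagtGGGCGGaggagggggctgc
Col4a5, chrX:141475169-141475418, plus strand: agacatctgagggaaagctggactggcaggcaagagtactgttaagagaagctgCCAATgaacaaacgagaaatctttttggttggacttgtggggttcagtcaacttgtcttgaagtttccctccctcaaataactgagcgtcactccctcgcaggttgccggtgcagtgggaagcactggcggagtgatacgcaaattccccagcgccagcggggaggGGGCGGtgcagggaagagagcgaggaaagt
The GC box, which binds factors of the SP family, occurs 4 times in the Col8a1 window, 3 times in that of Col18a1, 2 times in that of Col11a1 and 1 time in that of Col4a5. It was present in 21 of 36 collagen windows and in 32.7% of all 32851 windows of this length. A second annotated start of Col18a1 has neither box in its window, and the arrays do not tell the starts apart. The CCAAT box was present in all of the windows shown except that of Col8a1, in 13 of 36 collagen windows and in 33.8% of all windows. Neither E2F motif searched (TTTCCCGC, in 0.895% of all windows, and TTTGGCGC, in 0.417%) was in any window shown, nor was the cell cycle element TTTGAA (15.99%), the TATA box TATAAA (12.4%), the SOX motifs ACAATG (10.7%) and ACAAAG (16.5%), or the AP-1 site TGANTCA (6.75%). Both strands were searched, and a match or its absence describes letters only. Of the 42 genes, 33 had a window in the RefSeq promoter table and 9 did not.

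Col4a1 and Col4a2 lie head to head, and their annotated first bases overlap by 22 bases, chr8:11312805-11312826 on the plus strand, shown because both transcripts begin there: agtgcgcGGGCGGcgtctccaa. The capitals are a GC box. The starts of Col4a5 and Col4a6 also point away from each other, 1343 bases apart. The 2 genes of the first pair had log2 fold changes of 0.15 and 0.26, and Col4a5 one of 0.34, while Col4a6 was below background.

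**Figure D4:**
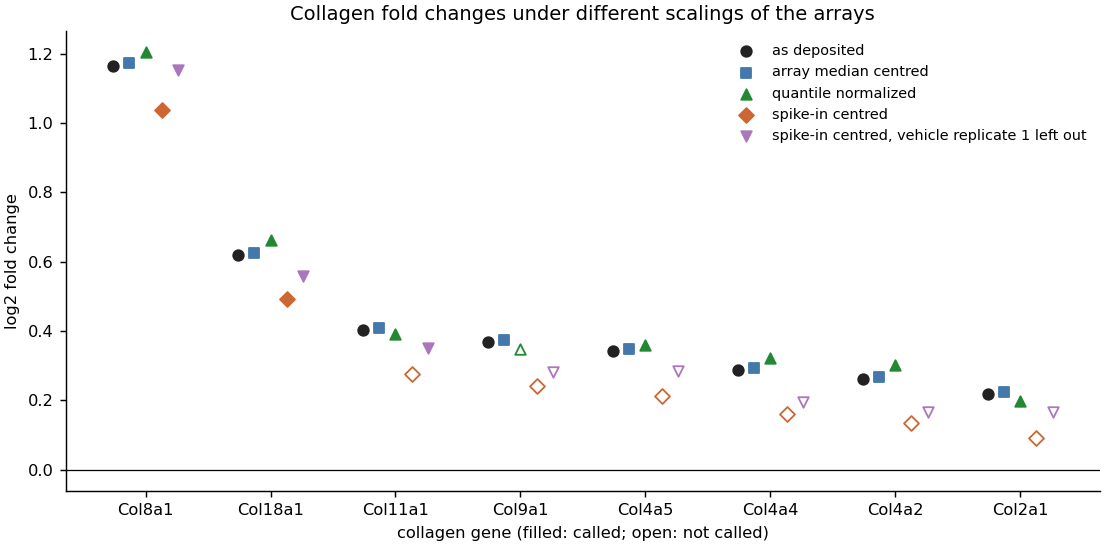
Log2 fold change of the 8 called collagens under 5 scalings of the arrays, filled where the limma call held. Spike-in centring lowers every gene by the same amount, leaves all 8 values above 0 and leaves Col8a1 and Col18a1 called.

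Collagen chains need dedicated enzymes and partners, and of 80 measured genes in 7 lists for collagen making and handling 30 rose and 1 fell in limma (37.5% higher; 9.81% and 11.2% of all genes). The median log2 fold change was 0.14. With spike-in centring 9 rose, 1 fell and the median was 0.01, or 11, 1 and 0.11 without vehicle replicate 1 in that scaling. Without vehicle replicate 1 alone, 21 rose and 0 fell. Leaving out each of the other arrays in turn gave 22 to 24 higher. Over all genes, calls were also fewer with any array left out. Each list count below stands beside 9.81% of all genes higher and 11.2% lower, or 1.32% and 8.11% with spike-in centring.

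Hydroxylases and glycosyltransferases act on the growing chain in the endoplasmic reticulum, and 6 of 14 rose. The count was 3 without PD0332991 replicate 1, 4 to 5 without any other single array and 2 with spike-in centring. P4ha1, the catalytic subunit of the prolyl hydroxylase that stabilizes the triple helix, read 1036, 1063 and 1046 with vehicle and 1644, 1637 and 1594 with PD0332991 (1.54-fold higher, log2 fold change 0.62, SE 0.03, adjusted p = 0.00017). It remained called with spike-in centring (log2 fold change 0.50). P4ha2, its isoenzyme, read 101 ± 12.7 and 201 ± 28.0 (SD, n = 3 each, adjusted p = 0.00605), below background in both groups.

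Of 12 folding and export genes 7 rose, 6 with any 1 array left out and 2 with spike-in centring. Sec24d, a coat protein of the vesicles that carry procollagen out of the endoplasmic reticulum, rose from 482 ± 12.1 to 804 ± 10.4 (SD, n = 3 each), 1.65-fold, and held its call with spike-in centring (adjusted p = 0.0023). Sec23a, its coat partner, rose 1.35-fold, from 1069 ± 15.9 to 1446 ± 7.1 (SD, n = 3 each), with adjusted p = 0.113 under spike-in centring. The 7 included Serpinh1, the collagen chaperone HSP47, which read 1783, 1721 and 1855 with vehicle and 1963, 1984 and 2028 with PD0332991. It was 1.11-fold higher (log2 fold change 0.16), with a limma adjusted p = 0.049 that only just passed the threshold.

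Of 7 propeptide processing genes 2 were called higher and 1 lower, beside 9.81% and 11.2% of all genes. With spike-in centring 1 was higher and 1 lower, beside 1.32% and 8.11% of all genes. Bmp1, which trims the end of fibrillar procollagens, rose 1.32-fold from 1218 ± 37.5 to 1612 ± 62.0 (SD, n = 3 each, adjusted p = 0.00292), and was not called with spike-in centring (adjusted p = 0.163). Pcolce2, an enhancer of that cleavage, read 39.1 ± 6.87 and 92.4 ± 5.92 (SD, n = 3 each, adjusted p = 0.00213), below background. Adamts3, a procollagen peptidase that trims the other end, fell 1.28-fold from 1004 ± 79.6 to 781 ± 68.4 (SD, n = 3 each, limma adjusted p = 0.0346). That call held without PD0332991 replicate 1 and was lost when any other array was left out, and on a second probe set the log2 fold change was -0.03.

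For cross-linking, 2 of 6 rose: Loxl3, a lysyl oxidase, 1.21-fold from 3343 ± 120.2 to 4059 ± 147 (SD, n = 3 each), and Pxdn, the peroxidase that joins type IV trimers, 1.17-fold from 1621 ± 48.7 to 1904 ± 54.5 (SD, n = 3 each). Both calls were lost with spike-in centring (adjusted p = 0.434 and 0.609), and that of Pxdn also without PD0332991 replicate 1 or 2, which left 1 of the 6 called. Of 11 collagen receptors 4 rose. Itga1, the alpha subunit of an integrin that binds type IV collagen, read 86.8 ± 7.76 and 151 ± 4.64 (SD, n = 3 each, adjusted p = 0.00136), below background, and its common partner Itgb1 rose 1.20-fold from 3147 ± 106 to 3776 ± 184 (SD, n = 3 each). The count of receptors was 1 without vehicle replicate 1, without PD0332991 replicate 1 or with spike-in centring, and 2 without any other single array. The call of Itgb1 was lost without vehicle replicate 1, vehicle replicate 2 or PD0332991 replicate 1, and with spike-in centring (adjusted p = 0.506).

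Among 15 collagen-binding matrix proteins 4 rose, also with any 1 array left out, and 2 with spike-in centring. Thbs1, a matricellular protein that activates TGF-beta, read 2120, 1967 and 2139 with vehicle and 3326, 4035 and 3793 with PD0332991 (1.78-fold higher, adjusted p = 0.00169), and Sparc, a collagen-binding glycoprotein, read 94.1, 70.3 and 104 with vehicle and 216, 238 and 285 with PD0332991, below background. Of the Sparc probe sets, 2 of 3 were called. Of 15 genes for collagen breakdown and its inhibition 5 rose, among them Ctsl, a lysosomal protease, 1.19-fold from 4130.2 ± 119 to 4934 ± 129.8 (SD, n = 3 each), and the inhibitor Timp2, 1.23-fold from 2092 ± 49.95 to 2578 ± 124 (SD, n = 3 each). On the other Ctsl probe set the log2 fold change was -0.38, 3 of 6 Timp2 probe sets were called, and both calls were lost with spike-in centring (adjusted p = 0.522 and 0.406). Of the 15, 2 rose without vehicle replicate 1, vehicle replicate 3 or PD0332991 replicate 2, and 4 to 6 without any other single array. With spike-in centring 1 rose.

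**Figure D5:**
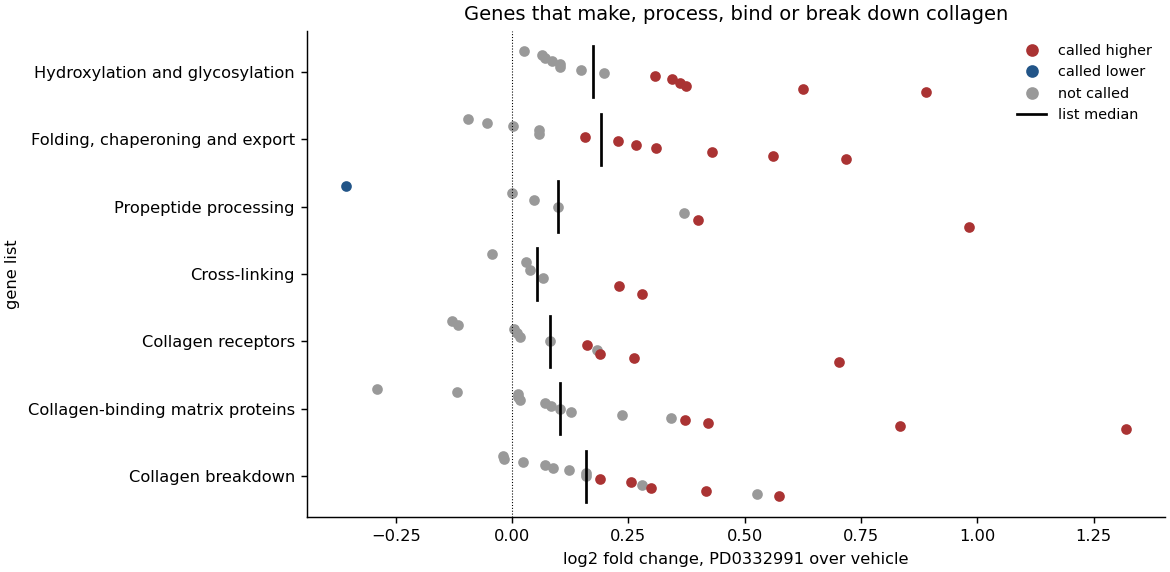
Log2 fold change (PD0332991 over vehicle) of the 80 measured genes for making, processing, binding or breaking down collagen, 1 point per gene, in 7 lists, with list medians as bars. The medians run from 0.05 (cross-linking) to 0.19 (folding, chaperoning and export), and Adamts3 is the 1 gene called lower.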

How the data were processed

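Biotin-labelled targets from total RNA were hybridized to 6 Affymetrix arrays, per the labels' protocols. The authors deposited 1 linear intensity per probe set and array, and the summarisation and scaling steps are not given in the sources used here. No scanner files were used. The 64 control probe sets were left out, and the 932 probe sets with several symbols and 9160 with none were not tested. Platform annotation named the genes, and all 42 collagen symbols matched RefSeq (GRCm38.p6) by gene number.

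Intensities were taken to log2(intensity + 16), so that folds of dim genes are understated, and the brightest probe set stood for a gene. Groups were compared with lmFit and eBayes of limma 3.58.1 (R 4.3.3), without a replicate block. The tests were two-sided, and p-values were adjusted over the 18193 genes by the method of Benjamini and Hochberg. The procedure was checked on simulated data. The number of arrays limits the precision. Tables and plots used Python 3.11.15, pandas 2.3.3 and matplotlib 3.10.9.

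Genes named were the collagens called or above background, and in each list up to 4 with the smallest p, at most 2 higher and 2 lower. Mki67 and Epcam were named as checks; other collagens, markers and Serpinh1 were named as descriptions. The members and lists were chosen with earlier results of these data known. Of 85 list entries, 80 were measured. Alternatives were other scalings, pseudocounts, probe-set rules, variance models, background levels, a stricter threshold, a replicate block and each array left out.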

Additional observations from a re-analysis of the deposited data

How the results depend on the processing

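The count of collagens called higher, 8 with all arrays, was 5 with a replicate block (4 of the 8, Col11a1, Col18a1, Col4a5 and Col8a1, and newly Col4a3, which is below background). It was 2 with spike-in centring, 3 with spike-in centring and vehicle replicate 1 left out, 4 at an adjusted p threshold of 0.01 and 4 to 7 with each array left out. With each array left out, 0 to 1 fell, the 1 being Col26a1, at intensities of 7.43 to 15.2, without vehicle replicate 2. Deviations of same-numbered arrays from their group means had correlations of -0.05, -0.12 and 0.16, and those of differently numbered arrays ran from -0.19 to 0.21. With 3 arrays in each group these values cannot decide whether the numbers pair samples. The main fit assumed no pairing, and the block gave 2047 calls over all genes in place of 3820. All-gene calls were 1715 with spike-in centring, 1571 with vehicle replicate 1 also left out, 6138 with each probe set tested, 1703 at the threshold of 0.01 and 2497 to 2683 with each array left out. The collagen median was -0.0043 with spike-in centring and 0.067 with vehicle replicate 1 also left out. It was 0.17 and 0.057 with pseudocounts of 1 and 64, 0.30 over the 10 genes left without dim genes, 0.085 with the mean of probe sets, 0.10 over probe sets, 0.14 without cross-matching probe sets and 0.10 to 0.14 with each array left out. Col8a1 and Col18a1 kept their calls in all 19 alternatives, Col11a1 in 18 and Col4a5 in 17, while Col4a4 lost its call in 9 of 18, Col4a2 in 9 of 19 and Col2a1 in 10 of 17. Col4a1 gained one in 2, without dim genes and with eBayes trend and robust settings. The count above background was 3 at the 99th percentile, 13 at the 90th and 15 at the median of all probe sets. The causes were not tested. Signals near background limit what can be said of the 32 dim genes.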

Other observations

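Col9a1, Col9a3 and Col11a1 were above background while Col2a1 was not. The levels of 12 other genes, made up of cartilage genes and SOX factor genes, were therefore read. Their list was written after the collagen values were seen. Cnmd, which encodes the cartilage glycoprotein chondromodulin, read 7379, 7264 and 7499 with vehicle and 8177, 7851 and 8320.5 with PD0332991 (log2 fold change 0.14, limma adjusted p = 0.058). The transcription factor genes Sox9, Sox10 and Sox6 were also above background. Sox9 read 1225 ± 54.4 and 1198 ± 23.3, Sox10 2479 ± 63.9 and 2319 ± 80.4, and Sox6 837 ± 8.47 and 779 ± 35.8 (SD, n = 3 each), and none of the 3 was called. Other matrix genes of cartilage were not above background: Acan, the main cartilage proteoglycan, lay between 18.7 and 31.6, Matn1 between 9.73 and 32.7, Hapln1 between 8.37 and 33.5 and Comp between 29.3 and 63.2 on all arrays. Snorc, a small membrane proteoglycan of cartilage, fell from 164 ± 4.85 to 70.9 ± 5.31 (SD, n = 3 each, limma adjusted p = 0.000156), below background in both groups. In all, 4 of the 12 genes were above background, 0 rose and 2 fell, the other being Sox5, while 9.81% of all genes were higher and 11.2% lower.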
